A study of Mus musculus with 4 samples.

Results

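Genes that encode mRNA decay factors of the ZFP36, Regnase and Roquin families were followed in mouse Th17 cells with and without the kinase PRAK. They were chosen by symbol as members of these families: Zfp36, Zfp36l1, Zfp36l2, Zc3h12a, Zc3h12d, Rc3h1 and Rc3h2. All 7 were present among the 17921 genes of the deposited table, and all 7 passed the filter on low counts that left 12680 genes for testing. Th17 cells from 2 PRAK KO mice (libraries KO 1 and KO 2) were set against Th17 cells from 2 wild-type mice (WT 1 and WT 2). In both genotypes the starting cells were enriched naive CD4+ T cells, polarised in culture for 72 h, and the whole culture was sequenced, with 1 library per mouse. PRAK is encoded by Mapkapk5. The labels give neither the allele, the strain nor the age of the mice, and the sources used here do not say whether the deletion is limited to T cells. Each mouse was a separate animal, so the spread between libraries of a genotype includes any difference between cultures.

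These proteins shorten the life of mRNAs that carry particular elements in the 3′ untranslated region (3′ UTR). ZFP36, also called tristetraprolin, and its relatives ZFP36L1 and ZFP36L2 bind AU-rich elements through paired zinc fingers and bring in the CCR4-NOT complex, which removes the poly(A) tail. Regnase-1, the product of Zc3h12a, is an endonuclease that cuts stem-loops in inflammatory mRNAs, and the product of Zc3h12d, Regnase-4, belongs to the same family. Roquin-1 and Roquin-2, from Rc3h1 and Rc3h2, hold related stem-loops in a ROQ domain and also recruit CCR4-NOT. In T cells these factors restrain cytokine and costimulator mRNAs. Mice lacking Regnase-1 or Roquin function in T cells develop overactive helper T cells. PRAK belongs to the same kinase group as MAPKAPK2, which acts downstream of p38 and phosphorylates tristetraprolin, reducing its decay activity. Such control of the protein is not visible in mRNA levels.

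The elements themselves are shown first, because part of the reported target mRNAs and several of the decay factors' own mRNAs carry them. The AU-rich element was searched as the nonamer TTATTTATT (written with T for U, mRNA strand, overlapping matches counted), and its core as the heptamer TATTTAT, which lies inside the nonamer. Of 12307 tested genes with a 3′ UTR in the GENCODE M21 annotation of GRCm38, 8.23% held the nonamer and 29.95% the heptamer. Tnf held 5 overlapping nonamers and Csf2 held 4, where 4.75% and 2.81% of 3′ UTRs of like length (within 20%) held any. The mRNAs of Zfp36, Zfp36l1, Zfp36l2, Rc3h1 and Rc3h2 each held 1, so 5 of the 7 decay factors held it. Of 3′ UTRs of like length 4.74%, 9.53%, 9.56%, 23.2% and 20.7% held any, in that order. Of 20 listed ZFP36 family targets 10 held the nonamer and 17 the heptamer. One site each for Tnf, Csf2, Il2 and the ZFP36 family mRNAs follows, 5′ to 3′, with the nonamer in capitals.
Tnf, chr17:35199691-35199715, minus strand: tgcacttaTTATTTATTatttattt
Csf2, chr11:54247327-54247351, minus strand: atatttatTTATTTATTtatttatt
Il2, chr3:37120900-37120924, minus strand: atctgaaaTTATTTATTatattgaa
Zfp36, chr7:28376953-28376977, minus strand: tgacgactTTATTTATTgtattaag
Zfp36l1, chr12:80108169-80108193, minus strand: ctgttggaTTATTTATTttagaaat
Zfp36l2, chr17:84184916-84184940, minus strand: tatttaacTTATTTATTatcttgtg

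The stem-loop of the kind Roquin and Regnase-1 recognise was searched as at least 6 Watson-Crick pairs around a loop of 3 bases, a pyrimidine, a purine and a pyrimidine. It was found in 9.95% of the 12307 3′ UTRs. Of 18 listed Regnase-1 and Roquin targets 9 held at least 1: Tnf, Nfkbid, Nfkbiz, Icos, Tnfrsf4, Rel, Ctla4, Tfrc and Zc3h12a. By this rule Il6 held none. Fos, a listed ZFP36 family target, also held 1. Among the 7 decay factors 3 held at least 1, Zc3h12a, Rc3h1 and Rc3h2. Zc3h12a held 3 in 856 bases, where 5.72% of 3′ UTRs of like length held any. Rc3h1 and Rc3h2 carry very long 3′ UTRs (7181 and 5331 bases), for which the share was 35.1% and 27.4%. The pair shared a stem-loop of 15 identical bases that occurred in no other of the 12307 3′ UTRs. The capitals mark the stem and loop. A match is a sequence feature, and binding was not measured.
Tnf, chr17:35199580-35199604, minus strand: gacatGTTTTCTGTGAAAACggagc
Nfkbid, chr7:30428397-30428421, plus strand: taggtGATTTCTGTGAAATCgagcc
Nfkbiz, chr16:55812609-55812633, minus strand: taagTTGTTTCTATGAAACAAaccc
Icos, chr1:60999826-60999850, plus strand: tgcctATTTCCTATGGAAATgaaga
Ctla4, chr1:60915760-60915784, plus strand: tcaatATTTTCCATGAAAATgcaac
Tnfrsf4, chr4:156016536-156016560, plus strand: cctatGTATGCTATGCATACtacct
Rel, chr11:23742023-23742047, minus strand: cgtgtAATGGCTATGCCATTgggaa
Zc3h12a, chr4:125118882-125118906, minus strand: tagttAGGCACCATGTGCCTgctct
Rc3h1, chr1:160971655-160971679, plus strand: ccaatAACTTCTGTGAAGTTgcctt
Rc3h2, chr2:37373804-37373828, minus strand: taattAACTTCTGTGAAGTTgttta

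Library totals lay between 19418012 and 20125124 expected counts. Mapkapk5 was lower in both KO libraries (20.04 and 21.6 CPM in KO 1 and KO 2, against 35.6 and 38.4 CPM in WT 1 and WT 2). CPM are counts relative to library size with TMM scaling, and TPM are transcript abundances scaled to gene length and library. The T cell marker Cd3e stood at 231 and 297 TPM in KO, against 293 and 264 TPM in WT. Of 12 listed T cell markers 9 were in the table, and they summed to 3345 and 3725 TPM in KO, against 3168 and 3145 TPM in WT. The 12 Th17 markers summed to 5816 and 2205 TPM in KO libraries, against 5579 and 4883 TPM in WT libraries. Of the 12 Th17 markers 1 rose in KO and 1 fell (edgeR, adjusted p under 0.05), where 5.14% of all genes rose and 8.23% fell. Of the 9 T cell markers 1 rose and 0 fell. Of 15 myeloid markers 13 were tested, and 8 rose in KO and 0 fell by the same test. Their summed level was 345 and 655 TPM in KO libraries, against 224 and 240.3 TPM in WT libraries. B cell markers summed to 142 and 135 TPM in KO and to 38.7 and 88.4 TPM in WT. For CD8 T and NK cells the sums were 532 and 487 TPM in KO, against 125 and 260.4 TPM in WT. No marker of these 3 lists was at 0 in all 4 libraries. In bulk RNA, fewer cells of a type and less RNA per cell cannot be told apart.

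None of the 7 decay factors passed the test between genotypes. Zc3h12a, Rc3h1, Zfp36l1 and Rc3h2 were above both WT libraries in both KO libraries, with log2 fold changes from 0.36 to 0.49. Zfp36 and Zc3h12d lay lower in both KO libraries (-0.29 and -0.24), and Zfp36l2 overlapped. At an adjusted p under 0.05 in edgeR's quasi-likelihood test, 0 of 7 were called, against 13.4% of all genes tested. At an unadjusted p under 0.05, 4 were higher in KO and 0 lower, where 15.1% of all genes were higher and 16.6% lower. Not overlapping and higher in KO were 4 of 7, against 31.7% of all genes, and not overlapping and lower were 2 of 7, against 31.4%. In either direction the genotypes did not overlap for 63.0% of all genes. With DESeq2, 1 of 7 was called higher (Zc3h12a) and 0 lower, against 7.85% and 10.4% of all genes. Scaling by library size alone also called Zc3h12a alone, with 7.24% of all genes higher and 6.81% lower, and it moved the median of all genes to 0.12. The higher share of calls over all genes was 38.5% with TMM and 51.5% with library size alone. The median log2 fold change of the 7 was 0.36, and that of all tested genes 0.02.

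**Figure D1:**
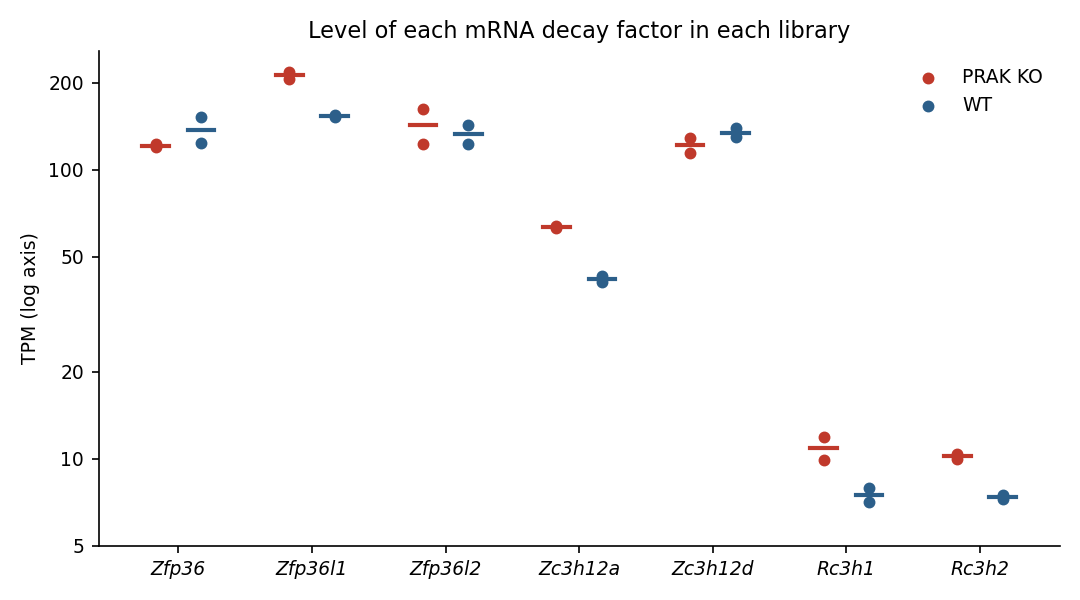
TPM of each decay factor (log axis) in the 2 KO libraries (red, left) and the 2 WT libraries (blue, right), with bars at the means. By its mean Zfp36l1 sits highest in each genotype, at 206 and 217 TPM in KO and 155 and 152 TPM in WT, and the Roquin genes lowest, between 7.06 and 11.85 TPM.

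Zfp36 (gene ID 22695, chromosome 7, 28376784 to 28379228, GRCm38.p6) encodes tristetraprolin, an immediate early gene product. Its level was 123 and 119 TPM in KO 1 and KO 2, against 123 and 152 TPM in WT 1 and WT 2. WT 2 stood above the other 3 libraries, which lay close together. On the CPM scale it averaged 109 ± 2.99 in KO and 133 ± 22.7 in WT (SD, n = 2 each), and edgeR's log2 fold change was -0.29 ± 0.15 (SE; 95% interval -0.66 to 0.08, adjusted p = 0.252, edgeR). Without WT 2 the change was -0.11.

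Zfp36l1 (gene ID 12192, chromosome 12, 80107760 to 80113013) encodes the relative also called BRF1, and its mean TPM was the highest of the 7 in each genotype. It stood at 206 and 217 TPM in KO libraries, against 155 and 152 TPM in WT libraries, with a gap between genotypes wider than the gap within either. It averaged 326 ± 27.3 CPM in KO and 253 ± 2.00 CPM in WT (SD, n = 2 each). In edgeR the log2 fold change was 0.37 ± 0.13 (SE; 95% interval 0.05 to 0.68; adjusted p = 0.113).

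Zfp36l2 (gene ID 12193, chromosome 17, 84183924 to 84187947), also called BRF2, overlapped between genotypes. Its level was 162 and 123 TPM in KO 1 and KO 2, against 142.5 and 123 TPM in WT 1 and WT 2. In edgeR the log2 fold change was -0.00 ± 0.15 (SE; adjusted p = 0.988), and it was 0.093 with scaling by library size alone. The 95% interval, -0.38 to 0.38, includes the value seen for its paralogue Zfp36l1.

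Within the ZFP36 family the shares of Zfp36l1 and Zfp36 separated the genotypes and that of Zfp36l2 did not. Such a share is taken within a library, so it does not depend on library scaling. Zfp36l1 made up 42.0% and 47.3% of the family's summed TPM in KO libraries, against 36.8% and 35.5% in WT libraries. Zfp36 made up 25.03% and 25.98% in KO, against 29.3% and 35.6% in WT, without overlap in either gene. Zfp36l2 overlapped, at 32.9% and 26.7% in KO and 33.9% and 28.8% in WT. The family's sum was 491 and 459 TPM in KO, against 421 and 427 TPM in WT, a ratio of 1.12. An exact two-sided permutation test over the 4 libraries gave p = 0.333 for that sum and for the shares of Zfp36l1 and Zfp36, the smallest p that a comparison of 2 with 2 allows.

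**Figure D2:**
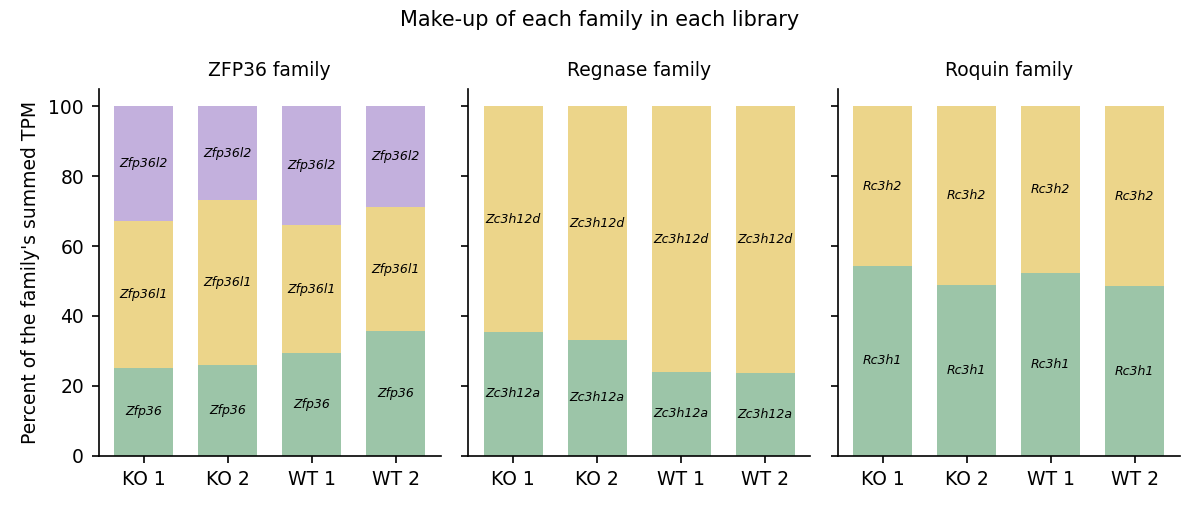
Share of each member in its family's summed TPM (percent), stacked, in the 2 KO and the 2 WT libraries. Zc3h12a holds 35.5% and 33.1% of the Regnase sum in KO libraries and 23.9% and 23.6% in WT libraries, while the Roquin genes split their sum nearly evenly in every library.

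Zc3h12a (gene ID 230738, chromosome 4, 125118414 to 125127881) encodes Regnase-1, the endonuclease that MALT1 cleaves after T cell receptor signalling. It came closest to the threshold. Its level was 62.6 and 63.9 TPM in KO libraries, against 40.8 and 43.0 TPM in WT libraries, and the separation was 3.88 times the larger of the within-genotype differences on the log2 CPM scale. That ratio was 2.56 for Rc3h1, 2.32 for Rc3h2, 2.14 for Zfp36l1, 0.88 for Zc3h12d, 0.79 for Zfp36 and 0.03 for Zfp36l2. How many of all genes reach such ratios was not counted. Zc3h12a averaged 91.4 ± 5.70 CPM in KO and 64.9 ± 3.89 CPM in WT (SD, n = 2 each). In edgeR the log2 fold change was 0.49 ± 0.12 (SE; 95% interval 0.20 to 0.79; adjusted p = 0.0515). DESeq2 gave an adjusted p of 0.0257 at a log2 fold change of 0.49. Scaling by library size alone gave 0.0334 at 0.59, and limma on log2(TPM + 1), which called 4.91% of all genes higher and 6.10% lower, gave 0.0454 at 0.58. Without WT 1 the adjusted p was 0.484 and without WT 2 it was 0.357.

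Zc3h12d (gene ID 237256, chromosome 10, 7832323 to 7870397) encodes Regnase-4, a protein known from lymphoid cells. Its level was 114 and 129 TPM in KO libraries, against 129.7 and 139 TPM in WT libraries. The libraries KO 2 and WT 1 were nearly equal. It averaged 256 ± 34.6 CPM in KO and 302 ± 21.2 CPM in WT (SD, n = 2 each), and in edgeR it differed by -0.24 ± 0.15 on the log2 scale (SE; adjusted p = 0.325).

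Within the Regnase pair the shares separated the genotypes and the sum did not. Zc3h12a made up 35.5% and 33.1% of the pair's summed TPM in KO libraries, against 23.9% and 23.6% in WT libraries (exact two-sided permutation test, p = 0.333, the smallest possible). The sum was 176 and 193 TPM in KO, against 170.5 and 182 TPM in WT (exact permutation p = 0.667). Of the remaining paralogues, Zc3h12c stood at 2.27 and 2.24 TPM in KO and 1.96 and 1.69 TPM in WT. Zc3h12b stood at 0.80 and 0.79 TPM in KO and 0.92 and 0.62 TPM in WT, and neither passed the test. Zfp36l3 was listed at 0 in both KO libraries and at 0.07 TPM in each WT library.

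Rc3h1 (gene ID 381305, chromosome 1, 160906411 to 160974976) encodes Roquin-1, whose sanroque mutation causes lupus-like disease in mice. Its level was 11.85 and 9.88 TPM in KO libraries, against 7.93 and 7.06 TPM in WT libraries. It averaged 60.6 ± 5.11 CPM in KO and 44.5 ± 3.78 CPM in WT (SD, n = 2 each). In edgeR the log2 fold change was 0.44 ± 0.13 (SE; 95% interval 0.12 to 0.77; adjusted p = 0.0831).

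Rc3h2 (gene ID 319817, chromosome 2, 37368861 to 37424370) encodes Roquin-2, which overlaps with Roquin-1 in function. Its level was 9.96 and 10.4 TPM in KO libraries, against 7.24 and 7.51 TPM in WT libraries. It averaged 47.5 ± 3.60 CPM in KO and 37.0 ± 1.90 CPM in WT (SD, n = 2 each). In edgeR the log2 fold change was 0.36 ± 0.12 (SE; 95% interval 0.05 to 0.67; adjusted p = 0.116). Together the Roquin mRNAs summed to 21.8 and 20.3 TPM in KO, against 15.2 and 14.6 TPM in WT, a ratio of 1.41 (exact two-sided permutation p = 0.333, the smallest possible). Their shares of that sum did not separate the genotypes, with Rc3h1 at 54.3% and 48.7% in KO and 52.3% and 48.5% in WT.

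**Figure D3:**
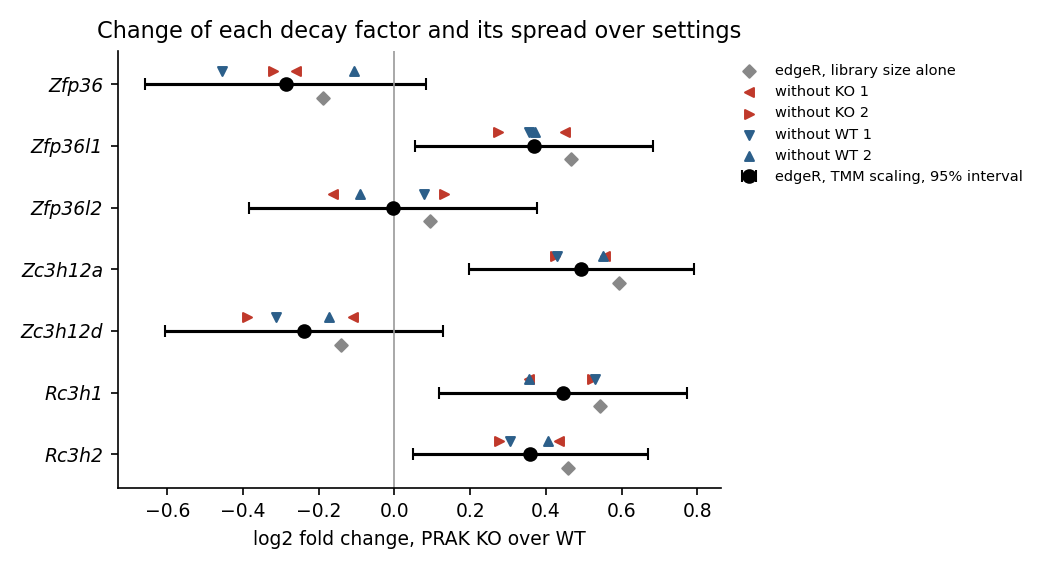
Log2 fold change of each decay factor, PRAK KO over WT, with its 95% interval in edgeR (black), the value under scaling by library size alone (grey diamonds), and the value without each library in turn (red without a KO library, blue without a WT library). The intervals of Zfp36l1, Zc3h12a, Rc3h1 and Rc3h2 lie above 0 before adjustment over all genes. The direction of these 4, and the lower direction of Zfp36 and Zc3h12d, stayed the same in every setting shown. None of these genes overlapped between genotypes, so leaving out 1 library could hardly reverse them. The direction of Zfp36l2 did not stay the same.

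How many of the 7 were called depended on the library left out. Without KO 1, Zfp36l1, Zc3h12a, Rc3h1 and Rc3h2 were called higher (adjusted p from 0.00106 to 0.0268). Without KO 2 the same genes were called higher (0.00145 to 0.048) and Zc3h12d was called lower (-0.39, adjusted p = 0.00908). Without WT 1 or without WT 2, 0 of 7 were called. Over all genes, 17.3% were called higher and 18.7% lower without KO 1, and 22.2% and 24.0% without KO 2. Without WT 1 these shares were 1.59% and 3.87%, and without WT 2 they were 1.85% and 3.43%, so the number called over all genes moved in the same way. Myeloid cells also express these decay factors, and the part of the myeloid markers, which were higher in both KO libraries, in the members' values was not tested.

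By level the members fell into 3 tiers. Zfp36l1, Zfp36l2, Zfp36 and Zc3h12d formed the upper one, with means of 212, 142, 121 and 121 TPM in KO and of 153, 133, 138 and 134 TPM in WT. In WT libraries the ranges of Zfp36, Zc3h12d and Zfp36l2 overlapped, so their order is not resolved, and in KO libraries Zc3h12d overlapped both of the others, while Zfp36 and Zfp36l2 nearly met. Zfp36l1 was above all of them in both KO libraries, and in WT its range overlapped that of Zfp36. Zc3h12a formed the middle tier, at 63.2 ± 0.955 TPM in KO and 41.9 ± 1.55 TPM in WT (SD, n = 2 each). The Roquin genes formed the lowest, and Rc3h1 and Rc3h2 were not distinguishable from each other in either genotype. The lowest count of any member was 696 expected counts, for Rc3h2 in WT 1.

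The genes most like each member were sought among 9800 named genes of at least 5 CPM, by the distance between log2 CPM profiles over the 4 libraries, each centred on its own mean. Zfp36l1 was closest to Dcp2, the gene of the catalytic decapping enzyme, at a distance of 0.0191, with Aftph nearly as close at 0.0199. Dcp2 stood at 48.5 and 53.6 CPM in KO libraries, against 39.2 and 39.6 CPM in WT libraries. The nearest to Zc3h12a was Gabpb1 (0.0096), that of Zc3h12d was Ankrd16 (0.0072), and that of Rc3h1 was Myh9 (0.027). For Zfp36 it was Ctso (0.032) and for Zfp36l2 Brap (0.016). The second nearest of these members were Aftph, Synpo, Letmd1, Rpn1, Pstk and Dhx38, in the same order. For Rc3h2 the pseudogene Rpl31-ps12 (0.041) was the second nearest, and its reads may be shared with its parent gene. With 4 libraries such closeness is a description of the profiles only.

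Upstream of the decay factors, Mapkapk3 rose and Mapkapk2 did not pass. Both encode p38-activated kinases related to PRAK. Mapkapk3 stood at 339.5 and 284 CPM in KO libraries, against 195 and 188 CPM in WT libraries (log2 fold change 0.70, standard error 0.14, adjusted p = 0.0323, edgeR). Mapkapk2 stood at 502 and 452 CPM in KO, against 525 and 474 CPM in WT (-0.07, adjusted p = 0.784). Malt1, the protease that cleaves Regnase-1 and Roquin, averaged 700.0 ± 0.867 CPM in KO and 895 ± 35.7 CPM in WT (-0.35, adjusted p = 0.147). Upf1, the helicase that Regnase-1 needs, differed by 0.32 (adjusted p = 0.321), and Nufip2, a Roquin cofactor, by 0.27 (adjusted p = 0.371). Of the 20 genes of that list, which includes Mapkapk5 and Zc3h12a, 1 rose and 1 fell, the faller being Mapkapk5, against 5.14% and 8.23% of all genes. The call of Mapkapk3 was lost without WT 1 (adjusted p = 0.217) or WT 2 (0.298), as was that of Mapkapk5 (0.0918 and 0.169).

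The genes of the machinery that the decay factors recruit were counted against the 5.14% of all genes that rose and the 8.23% that fell. Of 20 deadenylation genes 0 rose and 1 fell, of 20 decapping genes 0 rose and 0 fell, of 15 exosome and SKI genes 1 rose and 0 fell, and of 10 genes of nonsense-mediated decay 0 rose and 0 fell (edgeR). The median log2 fold changes were -0.08, 0.05, 0.22 and 0.01, against 0.02 for all genes tested. At an unadjusted p under 0.05, which 15.1% of all genes passed as higher and 16.6% as lower, deadenylation had 1 higher and 2 lower genes, decapping 1 and 2, the exosome list 3 and 1, and nonsense-mediated decay 1 and 0. DESeq2, which called 7.85% of all genes higher and 10.4% lower, called 1 and 1 in deadenylation and 0 and 1 in decapping. In the exosome list it called 2 and 0, and in nonsense-mediated decay 0 and 0. Cnot8, a catalytic deadenylase of CCR4-NOT, fell to 62.4 and 61.3 CPM in KO libraries, against 86.7 and 92.9 CPM in WT libraries (log2 fold change -0.54, adjusted p = 0.0361). Its counterpart Cnot7 averaged 85.1 ± 11.2 CPM in KO and 106 ± 2.50 CPM in WT (-0.32, adjusted p = 0.173), and the scaffold Cnot1 differed by -0.01. Exosc9, a core subunit of the exosome, rose to 36.7 and 28.4 CPM in KO, against 19.998 and 19.4 CPM in WT (0.73, adjusted p = 0.0495). The call of Cnot8 was lost without WT 1 (0.247), without WT 2 (0.412) and with scaling by library size alone (0.0555), and that of Exosc9 without WT 1 (0.223) or WT 2 (0.286).

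**Figure D4:**
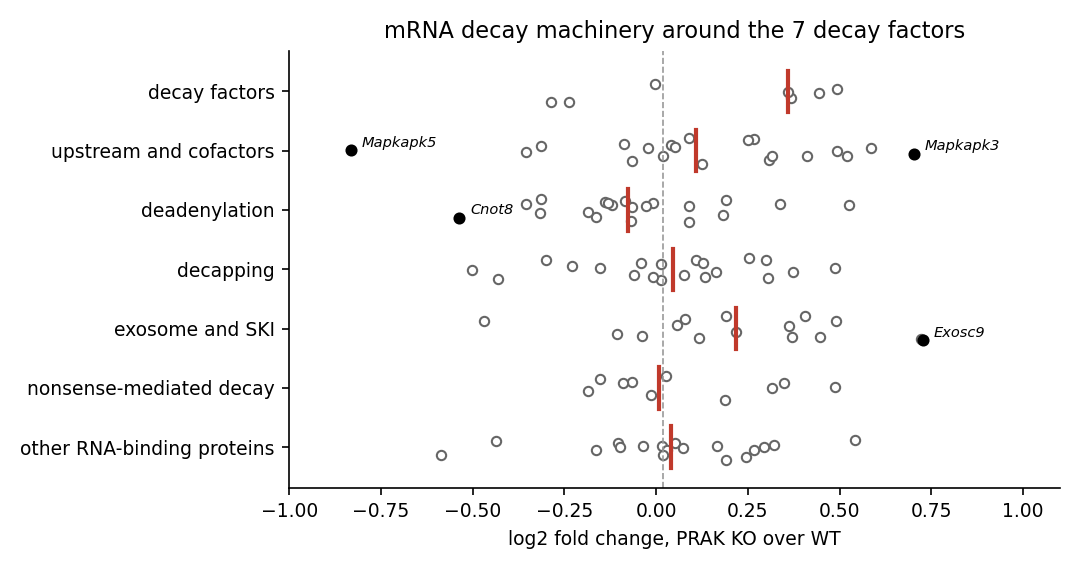
Log2 fold change of each tested gene, PRAK KO over WT, in the decay factors and in 6 lists of genes around them. Filled points passed the test, red bars are list medians and the dashed line is the median of all genes (0.02); 0 of the 7 decay factors are filled, and Mapkapk5, Mapkapk3, Cnot8 and Exosc9 are the filled ones.

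Of 18 other RNA-binding proteins that compete for or share these elements 0 rose and 0 fell (edgeR), against 5.14% and 8.23% of all genes. At an unadjusted p under 0.05, 2 were higher and 2 lower, against 15.1% and 16.6% of all genes. DESeq2 called 1 higher and 2 lower, against 7.85% and 10.4% of all genes. Arid5a, which shields the Il6 stem-loop from Regnase-1, averaged 421 ± 95.8 CPM in KO and 632 ± 36.5 CPM in WT (log2 fold change -0.59, adjusted p = 0.105). Elavl1, the gene of the stabilising protein HuR, averaged 144 ± 10.5 CPM in KO and 115 ± 6.15 CPM in WT (0.32, adjusted p = 0.132).

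Among mRNAs reported as ZFP36 family targets, most of those that passed were higher in KO. Of 20 listed, Zfp36 itself among them, 18 were tested. Of these 9 rose, 1 fell and 8 did not pass, against 5.14% and 8.23% of all genes. Their median log2 fold change was 0.94, against 0.02 for all genes. The list was chosen with earlier results of these data known, so these counts are a description only. Tnf, the classic target, stood at 149 and 177 CPM in KO libraries, against 70.2 and 63.5 CPM in WT libraries (log2 fold change 1.28, standard error 0.14, adjusted p = 0.00738). Csf2, which carries 4 overlapping nonamers, stood at 15.7 and 17.8 CPM in KO, against 4.82 and 4.39 CPM in WT (1.86, adjusted p = 0.00693). Il2, with 1 nonamer, stood at 105 and 276 CPM in KO, against 19.1 and 12.4 CPM in WT (3.59, adjusted p = 0.0146), with KO 2 far above KO 1. Ier3, a stress response gene also reported as a target, went the other way, at 39.2 and 34.0 CPM in KO and 125 and 127 CPM in WT (-1.79, adjusted p = 0.00284).

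The others that rose were Ifng, Ccl3, Il23a, Ptgs2, Il1b and Notch1, with log2 fold changes from 0.59 (Notch1) to 3.12 (Ifng). Il17a, a target in T cells, stood at 643 and 237 CPM in KO libraries, against 474 and 418 CPM in WT libraries (-0.02, adjusted p = 0.981), and the KO libraries lay on both sides of WT. Without KO 1 its change was -0.91 and without KO 2 it was 0.52. Il6 was too low to test, at 0.26 and 0.67 TPM in KO and listed at 0 and at 0.09 TPM in WT. Markers of myeloid cells, which also make Tnf, Il1b, Ptgs2, Ccl3 and Il23a, rose beside these genes, in 8 of 13 tested, against 5.14% of all genes. The summed levels of these markers were 345 and 655 TPM in KO against 224 and 240.3 TPM in WT. For CD8 T and NK cells, a further source of Ifng, the marker sums were 532 and 487 TPM in KO against 125 and 260.4 TPM in WT. The part of these cells in the result, here and for the Regnase-1 and Roquin targets, was not tested.

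Several of these calls rested on both WT libraries. Without WT 1 the adjusted p was 0.261 for Il2, 0.111 for Il23a, 0.104 for Ptgs2, 0.307 for Notch1 and 0.141 for Il1b. Without WT 2 it was 0.361 for Il2, 0.113 for Il23a, 0.0989 for Ptgs2 and 0.505 for Notch1. Leaving out KO 2 gave log2 fold changes of 2.73 for Il2, 1.62 for Il23a, 1.44 for Ptgs2 and 1.78 for Il1b, and leaving out WT 2 gave 3.33 for Il1b. Tnf, Csf2, Ifng, Ccl3 and Ier3 kept their call without any single library. The number of higher genes on the list changed with the library left out, and the number called higher over all genes moved in the same way.

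Reported targets of Regnase-1 and Roquin split in direction. Of 18 listed, Zc3h12a itself among them, 15 were tested. Of these 5 rose, 3 fell and 7 did not pass, against 5.14% and 8.23% of all genes. Their median log2 fold change was 0.36, against 0.02 for all genes. This list too was chosen with earlier results of these data known, so its counts are a description only. The lists share 7 genes, 35% of the first and 38.9% of the second, so they are not independent. Nfkbid, which encodes the nuclear inhibitor of NF-kB called IkBNS and carries 2 of the stem-loops, rose to 149 and 168 CPM in KO libraries, against 73.3 and 68.0 CPM in WT libraries (1.17, standard error 0.12, adjusted p = 0.00681). Tnf, Il2 and Ptgs2, which stand on both lists, also rose. Rel, the NF-kB subunit gene, rose to 28.2 and 40.9 CPM in KO, against 17.6 and 17.04 CPM in WT (0.99, adjusted p = 0.0377). Nfkbiz, which encodes a cofactor of Th17 genes and also carries 2 stem-loops, stood at 55.5 and 81.0 CPM in KO and 53.7 and 52.7 CPM in WT (0.36, adjusted p = 0.276, and 0.60 with adjusted p = 0.000571 without KO 1).

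The receptor genes Icos, a costimulator, and Ctla4, a checkpoint, fell, as did Ier3. Icos fell to 222 and 269 CPM in KO libraries, against 464 and 454 CPM in WT libraries (log2 fold change -0.90, standard error 0.15, adjusted p = 0.0199). Ctla4 fell to 589.7 and 512 CPM in KO, against 1195 and 1299 CPM in WT (-1.18, adjusted p = 0.0120). Tnfrsf4, the gene of OX40, averaged 455 ± 185 CPM in KO and 794 ± 72.4 CPM in WT (-0.80, adjusted p = 0.131) and did not pass. Among listed targets with the stem-loop, Tnf, Nfkbid and Rel were thus higher and Icos and Ctla4 lower in KO. The other listed targets that hold it, Nfkbiz, Tnfrsf4, Tfrc, Zc3h12a and Fos, were not called. The call of Icos was lost without WT 1 (adjusted p = 0.0949) or WT 2 (0.0832), that of Rel likewise (0.0906 and 0.110), and that of Ctla4 without WT 2 (0.0628).

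Over the whole transcriptome, genes with and without these elements were counted. Of 1013 tested genes whose 3′ UTR held the nonamer 64 rose (6.32%) and 94 fell (9.28%), against 558 (4.94%) and 925 (8.19%) of 11294 genes that lacked it. The median log2 fold change was 0.03 with the nonamer and 0.02 without it. With at least 3 nonamers, 6 of 87 genes rose and 7 fell. Of 1225 genes with the stem-loop 56 rose (4.57%) and 97 fell (7.92%), against 566 (5.11%) and 922 (8.32%) of 11082 that lacked it. Genes with either element had longer 3′ UTRs (medians of 2294 and 2459 bases) than genes without (1078 and 1055 bases). The annotation's longest 3′ UTR was used for each gene, and which 3′ ends these cells use was not measured.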

How the data were processed

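RNA sequencing was done on total RNA with a BGISEQ platform, per the labels' protocols. The authors deposited expected counts per gene (not normalised), FPKM and TPM for each of the 4 libraries, per the file headers. HISAT2 2.0.4, Bowtie2 2.2.5, RSEM 1.2.12 and GRCm38.p6 stand in the submitters' processing notes, without a role. Of the library kit, the strandedness and the annotation release, none is given in the sources used here. No other gene of the table overlapped a member in RefSeq. RSEM divides reads of similar paralogues by a model, and 69.4% of count values were whole. A few symbols (23) turned into dates were restored by gene ID.

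Expected counts were rounded, filtered with filterByExpr (minimum count 10, minimum total 15), scaled with TMM factors and fitted on all 12680 genes with the quasi-likelihood test of edgeR 4.0.16 (robust, genotype as the single term, R 4.3.3), with Benjamini-Hochberg adjustment over all genes. Standard errors come from the fold change and F statistic, and 95% intervals use the moderated degrees of freedom (2 residual, prior 3.58). The edgeR p-values set the difference between genotypes against the spread between 2 mice per genotype, moderated with information from all genes. TPM served for levels between genes, and FPKM from the authors only for family sums. Alternatives used DESeq2 1.42.0, limma 3.58.1 on log2(TPM + 1), other scaling, no filter, each library left out, and the mouse number as a block. The edgeR step was tested on simulated data with changes larger than any among the members, so that test does not cover changes of their size. 3′ UTRs are the longest per gene (at least 30 bases) in GENCODE M21, joined by Entrez ID, and the motif searches were added after the members' results were seen.

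Members and lists were chosen with earlier results of these data known, and target lists come from general knowledge of the field. Text names all members, Mapkapk5, genes of the pathway and target lists that passed (marker lists are given as counts and sums), 6 fixed targets and the 2 nearest profiles of each member, of which 1 is not reported here; other list genes were named after their values were seen.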

Additional observations from a re-analysis of the deposited data

How the results depend on the processing

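Of 35 named genes, scaling with DESeq2's size factors and testing without the count filter kept direction and side of the threshold for 35, the DESeq2 Wald test for 34, the replicate block for 32 and library size alone for 31. Leaving out a library kept 29 (KO 1), 28 (KO 2), 19 (WT 1) and 18 (WT 2), and limma kept 5 of the 7 decay factors. With library size alone, Zfp36l2 was at 0.093 and Il17a at 0.076, against -0.00 and -0.02 with TMM, and limma on TPM gave 0.090 for Zfp36l2. Without KO 2 they were at 0.13 and 0.52, and without WT 1 at 0.078 and 0.073, while without KO 1 they were at -0.16 and -0.91. The cause was not tested.

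The counts called higher in KO changed with library size alone to 1 decay factor, 2 upstream genes and 2 exosome genes, and the deadenylation genes called lower to 0. With DESeq2 they were 1 decay factor, 2 upstream, 1 deadenylation, 2 exosome and 1 other RNA-binding gene. The lower ones with DESeq2 were 1 in decapping, 2 in other RNA-binding proteins and 5 among Regnase-1 and Roquin targets, where 7 others were called higher. Over all genes, library size alone called 7.24% higher and 6.81% lower, and DESeq2 called 7.85% and 10.4%.

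The mouse number was also fitted as a replicate block. Same-numbered libraries correlated at r = 0.175 over only 2 pairs, so the number does not establish pairing. The block called 2935 of all 12680 genes (1338 higher and 1597 lower), against 1695 without it (652 higher and 1043 lower). It called 2 of 7 decay factors higher (Zc3h12a, adjusted p = 0.0195, and Rc3h1, 0.0334, edgeR). Also called higher were 3 of 20 upstream, 1 of 20 deadenylation, 1 of 20 decapping and 2 of 15 exosome genes. So were 1 of 10 nonsense-mediated decay genes and 1 of 18 other RNA-binding genes. Called lower were 2 decapping, 1 exosome and 2 other RNA-binding genes. Il2 had an adjusted p of 0.227 under the block.

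Leaving out 1 library at a time gave 693 to 5999 genes called, 0 to 4 decay factors higher and 0 to 1 lower. Higher and lower counts ranged over 0 to 8 and 0 to 4 in the upstream list, 0 to 3 and 0 to 5 in deadenylation, 0 to 6 and 0 to 3 in decapping, and 0 to 9 and 0 to 2 in the exosome list. They ranged over 0 to 3 and 0 to 0 in nonsense-mediated decay, 0 to 8 and 0 to 2 in other RNA-binding proteins, and 4 to 12 and 1 to 3 in ZFP36 targets. In Regnase-1 and Roquin targets they were 2 to 8 and 1 to 6, and in immediate early genes 2 to 15 and 1 to 5. Family sums, KO over WT, lay between 1.08 and 1.16 (ZFP36), 1.00 and 1.095 (Regnase) and 1.36 and 1.47 (Roquin). With 1 library left in an arm, that library is assumed to vary like the other genotype. With 2 mice per genotype, small changes may not be detectable.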

Other observations

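Zfp36 is an immediate early gene, and 24 genes of that class, chosen with earlier results of these data known, were examined beside it. Of these, 7 rose in KO, 2 fell and 15 did not pass, against 5.14% and 8.23% of all genes, with a median log2 fold change of 0.36, against 0.02 for all genes tested. Beside them 8 of 13 myeloid, 2 of 9 B cell and 1 of 8 CD8 T and NK cell markers rose, and 0 of these fell. The part of these markers' cells was not tested. Myeloid markers summed to 345 and 655 TPM in KO and to 224 and 240.3 TPM in WT. Dusp2, a phosphatase of MAP kinases, stood at 106 and 113 CPM in KO libraries, against 54.6 and 46.9 CPM in WT libraries (log2 fold change 1.11, adjusted p = 0.00883, edgeR). Fosl1, an AP-1 subunit gene, stood at 18.4 and 23.7 CPM in KO, against 4.87 and 3.76 CPM in WT (2.28, adjusted p = 0.00681). Egr1 stood at 221 and 231 CPM in KO, against 124 and 112 CPM in WT (0.94, adjusted p = 0.0104). Jun, Egr2, Ier5 and Atf3 also rose (0.83, 0.71, 1.04 and 0.90), and Socs3 fell with Ier3 (-1.06 and -1.79). Zfp36 itself lay lower in both KO libraries without passing (-0.29). Dusp1, another p38-induced gene, averaged 25.9 ± 6.38 CPM in KO and 25.02 ± 1.88 CPM in WT (0.05, adjusted p = 0.891). Leaving out WT 1 gave adjusted p values of 0.219 for Atf3, 0.125 for Egr2 and 0.153 for Jun. Leaving out WT 2 gave 0.110 for Atf3, 0.246 for Egr2, 0.0690 for Jun, 0.104 for Egr1, 0.0762 for Ier5 and 0.0588 for Socs3.

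The promoters of 6 members (250 bases before to 50 after the start, RefSeq, GRCm38.p6) were searched on both strands for 6 motifs, and Zfp36l2 had no entry. The AP-1 motif TGACTCA, held by 5.20% of 32851 promoters, was found in Rc3h1. The other motifs were in none of the 6: TGACGTCA (cAMP response element, 1.79% of all promoters), the serum response element (0.0639%), a pair of NF-kB motifs (0.155% and 0.0883%) and TGACNNNGC (antioxidant response element, 12.4%).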
